A study of Homo sapiens with 6 samples.

Results

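The insulin-like growth factor (IGF) axis was followed here through 10 genes, the binding proteins IGFBP1 to IGFBP7, the receptors IGF1R and INSR, and the adaptor IRS1, chosen by gene symbol out of 23245 gene rows. All 10 were present in the deposited tables. The cells were L3.6pl, an established human pancreatic cancer line, grown with fetal calf serum and left untreated. Of the 6 libraries, 3 came from ARID1A-deficient cells, titled as an ARID1A knockout, and 3 from parental cells with wild-type ARID1A. ARID1A encodes a subunit of SWI/SNF, a complex that moves nucleosomes. The labels name neither the way in which the gene was disrupted nor whether the deficient cells are 1 clone or several. They also do not say that the triplicates came from separate cultures, so p-values measure the spread between these libraries, which may be technical.

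IGF1, IGF2 and insulin act on a pair of related receptor tyrosine kinases, the IGF1 receptor and the insulin receptor, which pass the signal to docking proteins such as IRS1 and from there to PI3 kinase and AKT. The binding proteins are secreted carriers that hold the IGFs away from the receptor, lengthen their life, or release them after cleavage by proteases. Several binding proteins also act on cells without IGF, and IGFBP7, a vascular and stromal matrix protein, binds IGFs only weakly. Serum in the medium is itself a source of IGFs that messenger RNA does not show.

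Values are FPKM, fragments per transcript length and library size, which allow levels of different genes to be set side by side. The values of the libraries summed to 576681 to 792796 FPKM, the highest in parental library 2. Depths were estimated from 473 low rows above 0 in every library, as the most frequent ratio of parental library 1 to each library. They were 0.732 to 1.27 relative to parental library 1, if the values were scaled to the total. ARID1A itself measured 3.55, 3.28 and 3.61 FPKM in ARID1A-deficient libraries and 11.8, 6.76 and 9.42 FPKM in parental libraries, so it was lower in every library titled as knockout but not absent (log2 fold change -1.18, limma adjusted p = 0.00610). Epithelial markers (KRT7, KRT8, KRT18, KRT19, EPCAM and CDH1) summed to 4527 to 5723 FPKM in ARID1A-deficient libraries and 6286 to 9831 FPKM in parental libraries, and 0 of 6 passed limma (4 lower at an unadjusted p under 0.05). Each of the 6 passed under 2 to 4 of 15 other settings. KRT8, KRT19 and CDH1 passed as lower with some single library left out (lowest limma adjusted p = 0.0444, 0.0396 and 0.00457). Because these are bulk samples, fewer cells of a type and less RNA per cell cannot be told apart.

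In ARID1A-deficient cells IGFBP7 transcripts were higher by 2.36-fold, IGFBP3 transcripts were lower by 2.92-fold and those of the insulin receptor were lower by 1.79-fold, as ratios of group means. The transcripts of IGFBP2, IGFBP4, IGFBP6, IGF1R and IRS1 did not pass the test. IGFBP1 and IGFBP5 were at or near 0 in all 6 libraries and were not tested, since a mean of 0.5 FPKM or more was required. Thus 3 of 8 tested members passed limma at an adjusted p under 0.05, 1 higher and 2 lower, where 15.9% of all 12826 tested genes passed, 7.82% higher and 8.11% lower. Since the members were chosen with earlier results of these data known, their share does not test the axis. The members lower numbered 1 without ARID1A-deficient library 3 or parental library 3, where INSR did not pass, and 3 without parental library 2, where IRS1 did. IGFBP7, IGFBP3 and INSR were also the tested members with groups that did not overlap, which held for 35.3% of tested genes, 16.7% with the ARID1A-deficient libraries above and 18.6% with them below.

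**Figure D1:**
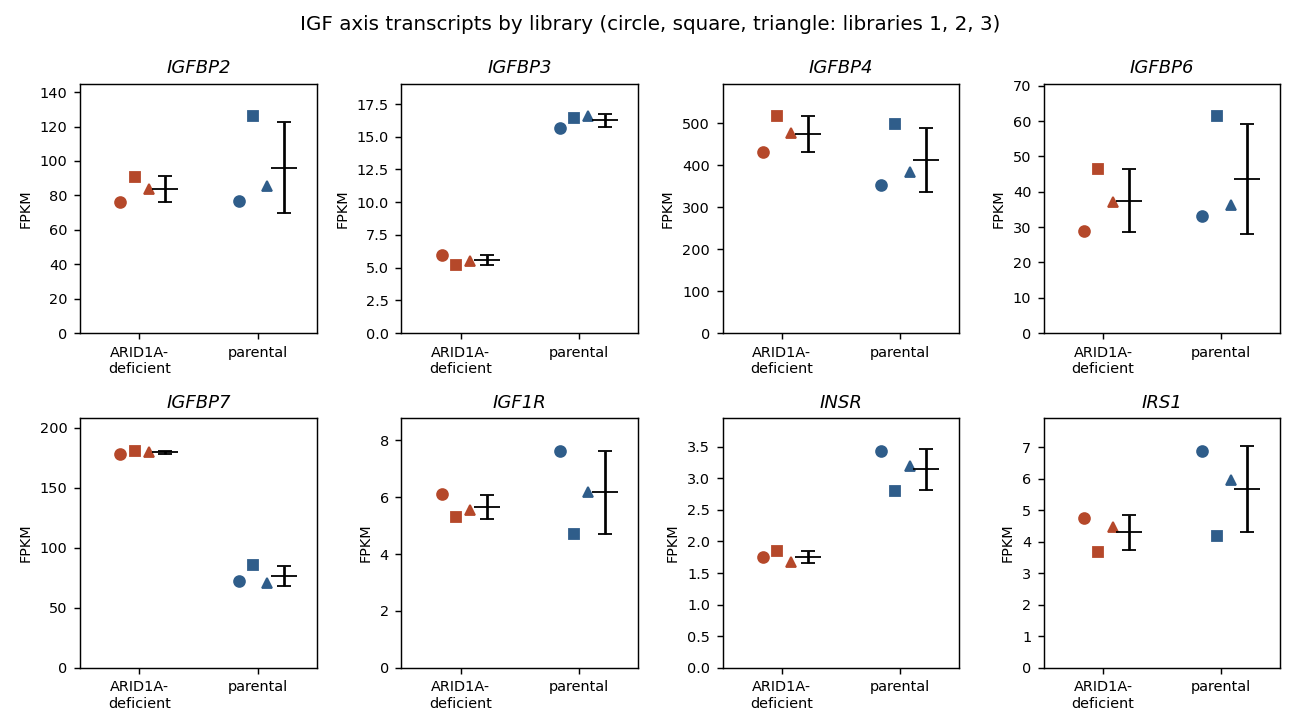
FPKM of the 8 tested genes in each library, with the 3 ARID1A-deficient libraries (red) left of the 3 parental libraries (blue) and the mean with its SD (n = 3) as black bars. The groups are apart for IGFBP3, IGFBP7 and INSR, and parental library 2 (square) is the highest parental value for IGFBP2, IGFBP4, IGFBP6 and IGFBP7 and the lowest for IGF1R, INSR and IRS1.

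The ligands were scarcely measurable. IGF1 measured 0.0147, 0 and 0 FPKM in ARID1A-deficient libraries and 0.0877, 0.0119 and 0.0183 FPKM in parental libraries. IGF2 measured 0.0665, 0.0775 and 0.0331 FPKM in ARID1A-deficient libraries and 0.0565, 0.0361 and 0.0691 FPKM in parental libraries. INS was listed at 0 in every library. All of these lie under the level needed for a test, and the receptors and carriers of the axis were therefore measured in cells with little IGF or insulin transcript of their own. An exact 0 can be a failed estimate in these tables, since DDR1, a collagen receptor of epithelial cells, was also listed at 0 in all 6 libraries.

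Among the carriers, IGFBP4 was the most abundant by a wide margin. It measured 431, 517 and 477 FPKM in ARID1A-deficient libraries and 353, 498 and 383 FPKM in parental libraries. The groups overlapped, with parental library 2 above ARID1A-deficient libraries 1 and 3. The log2 fold change was 0.22 (SE 0.18, limma adjusted p = 0.489), and its 95% interval of -0.21 to 0.65 does not show that the groups are alike. IGFBP4 is a small carrier that mostly restrains IGF action until the protease PAPPA cuts it.

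IGFBP7 was the member that rose. It measured 178, 181 and 179.8 FPKM in ARID1A-deficient libraries and 72.2, 85.7 and 70.5 FPKM in parental libraries. The 3 ARID1A-deficient values lay within a few FPKM of each other and all stood above the highest parental value. It averaged 179.6 ± 1.28 FPKM in ARID1A-deficient cells and 76.1 ± 8.35 FPKM in parental cells (SD, n = 3 each). Its log2 fold change was 1.23 with an SE of 0.12 (adjusted p = 0.000793, limma), and 283 tested genes had a larger increase. The call held under each of 15 other settings, with adjusted p of 0.00950 at most when single libraries were left out.

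IGFBP7 is abundant in fibroblasts and endothelium, so the markers of these cells are given beside it. The fibroblast list had 3 of 9 genes tested and all 3 were higher, COL1A1, COL1A2 and COL3A1, and its sum was 176 to 190 FPKM in ARID1A-deficient libraries and 21.3 to 24.2 FPKM in parental libraries. DCN and LUM, which define fibroblasts, were listed at 0 in every library, and FAP, THY1 and PDGFRB did not exceed 0.0447 FPKM in any library. PDGFRA measured 0.258, 0.197 and 0.258 FPKM in ARID1A-deficient libraries and 0.0206, 0.0788 and 0.0101 FPKM in parental libraries. Whether these markers had a part in the IGFBP7 result was not tested. The endothelial list summed to 8.66 to 9.23 FPKM in ARID1A-deficient libraries and 8.45 to 10.0 FPKM in parental libraries, nearly all of it CDH5 and PECAM1, while KDR, VWF and TEK stayed at or below 0.0394 FPKM. PECAM1 was lower, at 1.24 ± 0.142 FPKM in ARID1A-deficient cells and 2.01 ± 0.152 FPKM in parental cells (SD, n = 3 each, limma adjusted p = 0.0254), a call kept only without parental library 2 when single libraries were left out (highest adjusted p = 0.0992). CDH5 did not pass (adjusted p = 0.594, limma). Of the other lists, leukocyte genes summed to 6.12 to 7.91 FPKM in ARID1A-deficient libraries and 8.51 to 10.1 FPKM in parental libraries, mostly CD68. CD68 was lower (limma adjusted p = 0.0346). That call ended without ARID1A-deficient library 1 or 3 or parental library 1 or 3 (highest adjusted p = 0.136). It also ended with median centring (limma adjusted p = 0.0613) and quantile normalization (limma adjusted p = 0.0562). Hepatocyte and islet genes held no tested gene.

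POLR2B, which encodes a subunit of RNA polymerase II, overlaps IGFBP7 in the RefSeq annotation of GRCh38, and the library kit does not mark strand. POLR2B measured 29.9, 23.7 and 28.1 FPKM in ARID1A-deficient libraries and 42.1, 28.3 and 37.5 FPKM in parental libraries, and did not pass (log2 fold change -0.38, limma adjusted p = 0.177), though it did without parental library 2 (adjusted p = 0.00841) and with library length trends as a covariate (adjusted p = 0.0178). The groups of POLR2B overlapped, at parental library 2. Among the 10 tested genes nearest to IGFBP7, 5 on each side, 2 were higher and 2 lower, with a median log2 fold change of -0.25 (range -0.63 to 5.81).

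IGFBP3, the main carrier of IGFs in serum, was the member that fell most. It measured 5.97, 5.22 and 5.52 FPKM in ARID1A-deficient libraries and 15.7, 16.4 and 16.6 FPKM in parental libraries. No value of one group came near the other. It averaged 5.57 ± 0.377 FPKM in ARID1A-deficient cells and 16.2 ± 0.468 FPKM in parental cells (SD, n = 3 each). Its log2 fold change was -1.39 with an SE of 0.08 (adjusted p = 9.62e-05, limma), and 181 tested genes fell further. The call held under each of 15 other settings, and leaving out single libraries moved the log2 fold change only between -1.44 and -1.35. IGFBP3 and IGFBP1 are direct neighbours among the coding genes of chromosome 7. Of the 10 tested genes nearest to IGFBP3, 0 passed limma in either direction (1 higher with an unadjusted p below 0.05). Their log2 fold changes ran from -2.67 to 0.72, with a median of 0.07, and small nucleolar RNA rows were among them.

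The 250 bases before the annotated start of IGFBP3 and of INSR, the members that fell, are shown as a look at the sequence from which these transcripts begin. Both come from the RefSeq promoter table of build GRCh38.p14, which held entries for 8 of the 10 members, and they are read 5′ to 3′ on the minus strand, at chr7:45921273-45921522 and chr19:7294415-7294664. Capitals mark the GC box GGGCGG, the core of the sites bound by SP1-type factors, or its reverse complement CCGCCC.
IGFBP3: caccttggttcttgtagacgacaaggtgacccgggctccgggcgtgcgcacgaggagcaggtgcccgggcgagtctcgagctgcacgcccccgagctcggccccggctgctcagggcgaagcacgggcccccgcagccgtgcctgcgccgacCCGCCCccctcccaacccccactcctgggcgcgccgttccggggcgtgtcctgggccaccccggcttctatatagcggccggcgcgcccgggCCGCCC
INSR: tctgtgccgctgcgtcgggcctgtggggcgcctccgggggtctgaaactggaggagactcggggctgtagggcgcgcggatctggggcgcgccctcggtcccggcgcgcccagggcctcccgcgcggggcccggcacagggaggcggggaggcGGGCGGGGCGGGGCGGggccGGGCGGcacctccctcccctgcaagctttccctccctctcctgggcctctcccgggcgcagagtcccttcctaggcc
The IGFBP3 window held 2 GC boxes and the INSR window 4, which stand in a row of overlapping and close copies. GC boxes were found in 42.6% of all 35116 windows of this length in the table, searching both strands. Neither window held the AP-1 motif TGANTCA, found in 6.57% of windows, or the TEAD motif GGAATG, found in 11.9%. Windows of members that did not pass the test also held GC boxes, with 4 in that of IRS1, 2 in that of IGF1R and 1 each in those of IGFBP4 and IGFBP6. The 3 windows of IGFBP2 held 1, 1 and 0, and the window of IGFBP5, which was not tested, held 0. GC content was 76% in the IGFBP3 window and 78.4% in the INSR window. These are matches of letters in a build other than the GRCh37 of the expression tables.

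IGFBP2, a carrier often made by epithelial tumours, measured 76.1, 90.9 and 84.0 FPKM in ARID1A-deficient libraries and 76.9, 126 and 85.5 FPKM in parental libraries. Apart from the high value of parental library 2, the groups lay within the same span. The log2 fold change was -0.17 (95% interval -0.63 to 0.29, limma adjusted p = 0.622). It was 0.04 without parental library 2 (adjusted p = 0.801), and -0.29 with each library's length trend as a covariate, where it passed (adjusted p = 0.00991).

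IGFBP6, a carrier that prefers IGF2, measured 28.9, 46.6 and 37.1 FPKM in ARID1A-deficient libraries and 33.2, 61.4 and 36.3 FPKM in parental libraries. Library 2 was the highest of both groups, and the groups overlapped. The log2 fold change was -0.19 (95% interval -0.81 to 0.44, limma adjusted p = 0.698), and it was 0.08 without parental library 2 (adjusted p = 0.753). Of all tested members IGFBP6 had the widest interval.

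IGFBP5, a carrier that binds to matrix, measured 0.0340, 0.0298 and 0.0272 FPKM in ARID1A-deficient libraries and was listed at 0 in the parental libraries, so its groups did not overlap either. IGFBP1, a carrier made by liver under the control of insulin, was listed at 0 in all libraries but parental library 1, where it measured 0.0452 FPKM. Such values stand for very few fragments, and no fold is given. IGFBP5 and IGFBP2 are direct neighbours among the coding genes of chromosome 2, as IGFBP1 and IGFBP3 are on chromosome 7, and in each pair 1 gene was readily measured and the other was not.

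**Figure D2:**
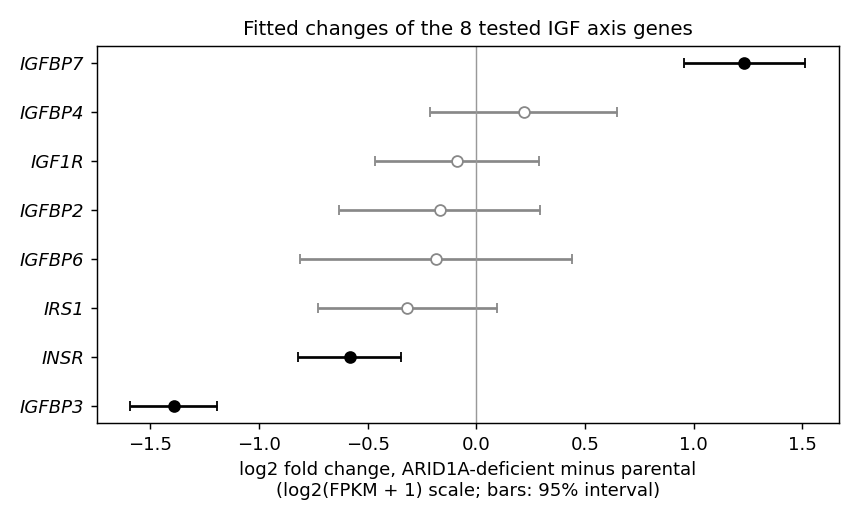
Fitted log2 fold change of each tested gene, ARID1A-deficient minus parental, on the log2(FPKM + 1) scale, with its 95% interval. Filled points passed limma: IGFBP7 at 1.23, INSR at -0.58 and IGFBP3 at -1.39, and the open points have intervals that span 0.

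The make-up of the carrier transcripts was then described within each library, where differences of scale between libraries cancel. IGFBP7 held 24.8%, 21.5% and 22.9% of the summed FPKM of IGFBP1 to IGFBP7 in ARID1A-deficient libraries and 13.1%, 10.9% and 11.9% in parental libraries. IGFBP3 held 0.718% ± 0.105 in ARID1A-deficient libraries and 2.58% ± 0.425 in parental libraries (SD, n = 3 each). IGFBP7 transcripts thus outnumbered IGFBP3 transcripts, per length, by 29.9 to 34.6 times in ARID1A-deficient libraries and by 4.25 to 5.21 times in parental libraries.

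IGFBP4 remained the largest part, with 60.7% ± 0.850 in ARID1A-deficient libraries and 64.0% ± 0.752 in parental libraries. IGFBP2 held 10.7% ± 0.125 in ARID1A-deficient libraries and 14.8% ± 1.07 in parental libraries, and IGFBP6 held 4.76% ± 0.763 in ARID1A-deficient libraries and 6.65% ± 0.994 in parental libraries (SD, n = 3 each). The groups did not overlap in any of these 5 shares. Shares add up to a whole, so a larger share of IGFBP7 lowers the others without any change in their own level, and no test was made on them. The summed level itself was 720, 840 and 784 FPKM in ARID1A-deficient libraries and 551, 788 and 592 FPKM in parental libraries, where parental library 2 lay within the ARID1A-deficient range.

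**Figure D3:**
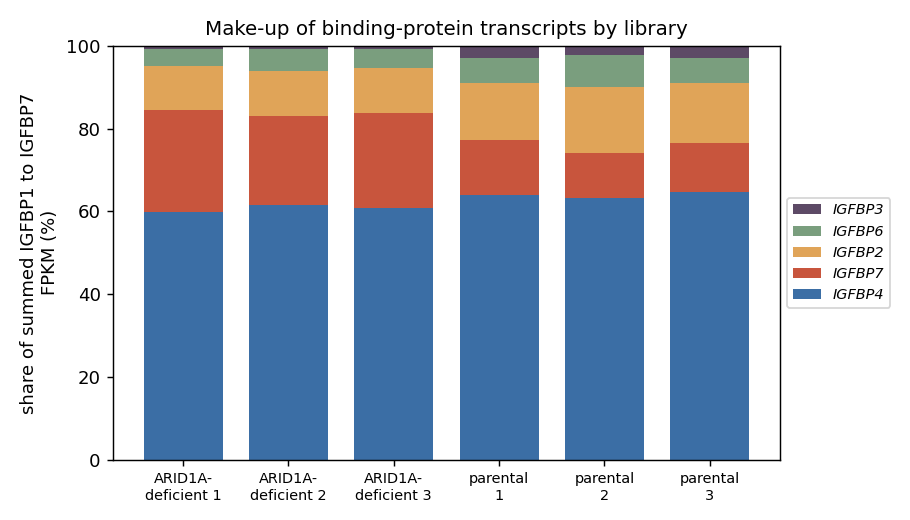
Share of the summed FPKM of IGFBP1 to IGFBP7 held by each gene, in percent, as stacked bars for the 3 ARID1A-deficient libraries (left) and the 3 parental libraries (right). The IGFBP7 band covers 21.5% to 24.8% in ARID1A-deficient libraries and 10.9% to 13.1% in parental libraries, IGFBP4 is the largest band in all 6, and IGFBP1 and IGFBP5 are too small to draw.

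By level, the order in ARID1A-deficient cells was IGFBP4, IGFBP7, IGFBP2, IGFBP6, IGF1R, IGFBP3, IRS1 and INSR. Of these neighbours only IGF1R and IGFBP3 had ranges that overlapped. In parental cells the order was IGFBP4, IGFBP2, IGFBP7, IGFBP6, IGFBP3, IGF1R, IRS1 and INSR, and the ranges of IGFBP2 and IGFBP7 overlapped, as did those of IGF1R and IRS1. IGFBP7 therefore stood clear above IGFBP2 in ARID1A-deficient cells alone, and IGFBP3 stood clear above IGF1R in parental cells alone, differences between the groups that were not tested as such.

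Of the receptors, INSR was the one that fell. The insulin receptor binds insulin and, in its shorter splice form, also IGF2. It measured 1.75, 1.85 and 1.67 FPKM in ARID1A-deficient libraries and 3.43, 2.80 and 3.19 FPKM in parental libraries. The highest ARID1A-deficient value was below the lowest parental one. It averaged 1.76 ± 0.0934 FPKM in ARID1A-deficient cells and 3.14 ± 0.321 FPKM in parental cells (SD, n = 3 each). Its log2 fold change was -0.58 on the log2(FPKM + 1) scale with an SE of 0.10 (adjusted p = 0.00926, limma). The call ended without ARID1A-deficient library 3 (adjusted p = 0.0560) and without parental library 3 (adjusted p = 0.0522). Of the 10 tested genes nearest to INSR, 1 was higher and 0 were lower in limma (4 higher and 0 lower before adjustment, at p under 0.05), with a median log2 fold change of 0.22 (range -0.42 to 1.37). A value per gene does not separate the splice forms of the receptor.

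IGF1R, the main receptor of IGF1 and IGF2, measured 6.12, 5.30 and 5.55 FPKM in ARID1A-deficient libraries and 7.63, 4.71 and 6.19 FPKM in parental libraries. The parental values enclosed the ARID1A-deficient ones. The log2 fold change was -0.09 (95% interval -0.47 to 0.29, limma adjusted p = 0.763), and its sign turned without parental library 1 (0.05) and with the length covariate (0.01). The ratio of IGF1R to INSR was 3.49, 2.86 and 3.33 in ARID1A-deficient libraries and 2.22, 1.68 and 1.94 in parental libraries. The ratios of the groups did not overlap, and the ratio was not tested.

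IRS1, the docking protein that links both receptors to PI3 kinase, measured 4.75, 3.67 and 4.48 FPKM in ARID1A-deficient libraries and 6.89, 4.19 and 5.97 FPKM in parental libraries. Parental library 2 fell among the ARID1A-deficient values and the other parental libraries lay above them. The log2 fold change was -0.32 (95% interval -0.73 to 0.09, limma adjusted p = 0.278). Without parental library 2 it was -0.49 and passed (adjusted p = 0.0178).

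Parental library 2 stood apart from the other parental libraries in a way that went with transcript length. Relative to the mean of parental libraries 1 and 3, its log2 FPKM ratio was 0.82 for IGFBP6, 0.63 for IGFBP2, 0.44 for IGFBP4 and 0.27 for IGFBP7, whose longest coding transcripts have 1177, 1439, 2200 and 1427 bases. The ratio was -0.62 for IRS1, -0.55 for IGF1R and -0.24 for INSR, with 9705, 12235 and 8954 bases. IGFBP3, with 2412 bases, was at 0.03. Over all tested genes with a length, log2 values were taken as deviations from each gene's mean over the 6 libraries. Their slope on log2 length was -0.0261 to -0.00143 in the ARID1A-deficient libraries, against 0.0590, -0.0561 and 0.0267 in parental libraries 1, 2 and 3. Such slopes compare libraries with each other and do not give the length dependence within any 1 library. With these slopes as a covariate the calls of IGFBP7, IGFBP3 and INSR held in limma (adjusted p = 5.94e-06, 5.67e-06 and 0.00167). The slopes were estimated from the same expression values, which these p-values do not take into account, so the smaller p-values are not stronger evidence.

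**Figure D4:**
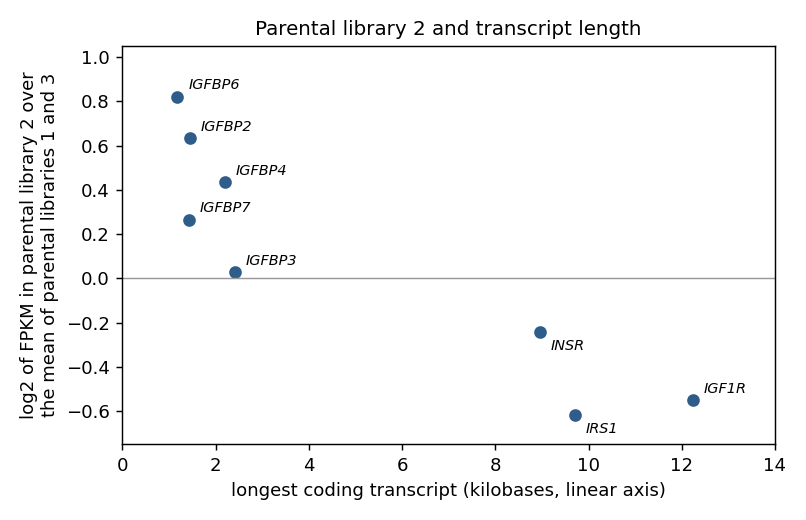
For each tested gene, the log2 ratio of FPKM in parental library 2 to the mean of parental libraries 1 and 3, against the length of its longest coding GENCODE transcript in kilobases. The 5 binding-protein genes sit between 0.03 and 0.82 and the 3 long genes IGF1R, INSR and IRS1 between -0.62 and -0.24.

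The rest of the pathway was described by 7 lists of 104 genes outside the members, of which 82 were tested with limma. Of these, 14 were higher and 12 lower, or 31.7%, where 15.9% of all tested genes passed. The lists were chosen with earlier results of these data known, and some list genes, such as CYR61, CTGF and H19, were known to move. The larger share is therefore no test of the pathway. The median log2 fold change of these 82 genes was 0.00, against -0.01 for all tested genes. These counts moved with single libraries, from 7 higher and 4 lower without ARID1A-deficient library 3 to 16 higher and 19 lower without parental library 2. Without parental library 1 there were 14 higher and 6 lower, without parental library 3 there were 9 and 4, and without ARID1A-deficient libraries 1 and 2 there were 9 and 6, and 9 and 4.

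Genes that handle the ligands and carriers were higher for 3 of 5 tested and lower for 0 (0 also at an unadjusted p under 0.05 in limma). STC1, stanniocalcin 1, a secreted inhibitor of the carrier-cutting protease PAPPA, measured 171, 156 and 158 FPKM in ARID1A-deficient libraries and 74.2, 57.0 and 68.0 FPKM in parental libraries. The groups did not overlap, and STC1 rose 2.44-fold (limma adjusted p = 0.00103). STC2, the other stanniocalcin of this list, averaged 78.3 FPKM in ARID1A-deficient cells and 76.6 FPKM in parental cells. It did not pass (log2 fold change 0.03, limma adjusted p = 0.863). ADAMTS1, a secreted metalloprotease of the ADAMTS family, rose 8.28-fold to 10.0 ± 1.40 FPKM in ARID1A-deficient cells, against 1.21 ± 0.168 FPKM in parental cells (SD, n = 3 each). HTRA1, a secreted serine protease with an IGFBP-like domain that also counts among the relatives described next, rose 1.54-fold, a call that ended without parental library 3 or any 1 ARID1A-deficient library (highest adjusted p = 0.0827). PAPPA itself was listed at 0 in all libraries.

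Relatives that share the IGF-binding domain but bind IGFs weakly or not at all were higher for 5 of 6 tested, HTRA1 included, and lower for 0 (0 also at an unadjusted p under 0.05 in limma). CYR61, a matricellular protein now called CCN1, measured 96.5, 89.1 and 95.9 FPKM in ARID1A-deficient libraries and 15.8, 17.5 and 16.1 FPKM in parental libraries, a 5.70-fold rise (limma adjusted p = 1.04e-05). CTGF, its relative CCN2, rose 5.63-fold. KAZALD1, a secreted protein with the same domain, rose 1.65-fold, a call that ended without ARID1A-deficient library 3 (adjusted p = 0.0501). Without that library 2 of the relatives were higher, and 4 were without ARID1A-deficient library 1 or 2 or parental library 3.

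Other receptors had 1 of 4 tested members lower and 0 higher in limma (0 also at an unadjusted p under 0.05). LRP1, an endocytic receptor, fell 1.76-fold, a call that ended when any 1 library but parental library 2 was left out (highest adjusted p = 0.148), and without parental library 2 there were 2 lower. IGF2R, which clears IGF2 and carries lysosomal enzymes, measured 17.0, 12.5 and 13.9 FPKM in ARID1A-deficient libraries and 14.7, 7.71 and 12.5 FPKM in parental libraries, and did not pass in limma (adjusted p = 0.394), though it did with the length covariate (log2 fold change 0.48, adjusted p = 0.00352).

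Adaptors and dampers of the receptors gave 0 calls among 15 tested genes in limma, with 2 genes at an unadjusted p below 0.05. There were 1 higher and 2 lower without parental library 2. IRS2, the other widespread docking protein, measured 3.97, 2.70 and 3.45 FPKM in ARID1A-deficient libraries and 4.47, 2.41 and 3.10 FPKM in parental libraries (log2 fold change 0.03, 95% interval -0.44 to 0.50, limma adjusted p = 0.942). The parental values enclosed the ARID1A-deficient ones, and the sign turned without ARID1A-deficient library 1 (-0.07) and without parental library 2 (-0.13).

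PI3 kinase, AKT and mTOR genes had 1 of 27 tested members higher and 4 lower, or 18.5%, near the share of all tested genes. PIK3R3, a regulatory subunit of PI3 kinase, rose 1.63-fold, INPP4B, a phosphatase of inositol lipids, fell 1.44-fold, and PHLPP1, a phosphatase of AKT, fell 1.78-fold. Each of these calls ended when ARID1A-deficient library 3 or parental library 3 was left out, those of PIK3R3 and PHLPP1 also without ARID1A-deficient library 1, those of INPP4B and PHLPP1 without ARID1A-deficient library 2, and that of PHLPP1 without parental library 1 (highest adjusted p = 0.112). The list had 0 higher and 0 lower without ARID1A-deficient library 3 or parental library 3, 0 and 1 without ARID1A-deficient library 1, 1 and 0 without ARID1A-deficient library 2, 1 and 2 without parental library 1, and 2 and 7 without parental library 2.

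FOXO factors, which AKT keeps out of the nucleus, and genes listed as their targets had 4 of 18 members higher and 5 lower. PDK4, a kinase that restrains pyruvate dehydrogenase, measured 0.823, 0.411 and 0.705 FPKM in ARID1A-deficient libraries and 4.55, 3.18 and 3.74 FPKM in parental libraries, a 5.92-fold fall (limma adjusted p = 0.000813). PCK2, the mitochondrial phosphoenolpyruvate carboxykinase, fell 2.24-fold and GADD45A, a stress gene, rose 1.97-fold. Members of the list thus moved both ways. The counts were 2 higher and 3 lower without ARID1A-deficient library 1, 2 and 2 without ARID1A-deficient library 2, 3 and 2 without ARID1A-deficient library 3 or parental library 3, and 4 and 2 without parental library 1.

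A list named for regulators of IGF messenger RNA had 2 of 8 tested members higher and 2 lower. It is a loose group, since not all of its genes, such as HMGA2, act on that RNA. IGF2BP1, an RNA-binding protein of fetal tissue named for IGF2 messenger RNA, measured 0.126, 0.115 and 0.131 FPKM in ARID1A-deficient libraries and 1.79, 1.80 and 1.78 FPKM in parental libraries. The values within a group were close together and the groups far apart, a 14.4-fold fall (limma adjusted p = 8.83e-05). H19, the imprinted noncoding neighbour of IGF2, fell 9.06-fold, while IGF2 did not exceed 0.0775 FPKM in any library. HMGA2, a chromatin protein of fetal tissue, rose 1.54-fold, a call that ended without ARID1A-deficient library 2 or 3 or parental library 3 (highest adjusted p = 0.0777). Without these libraries the list had 0 higher, and 1 without ARID1A-deficient library 1.

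**Figure D5:**
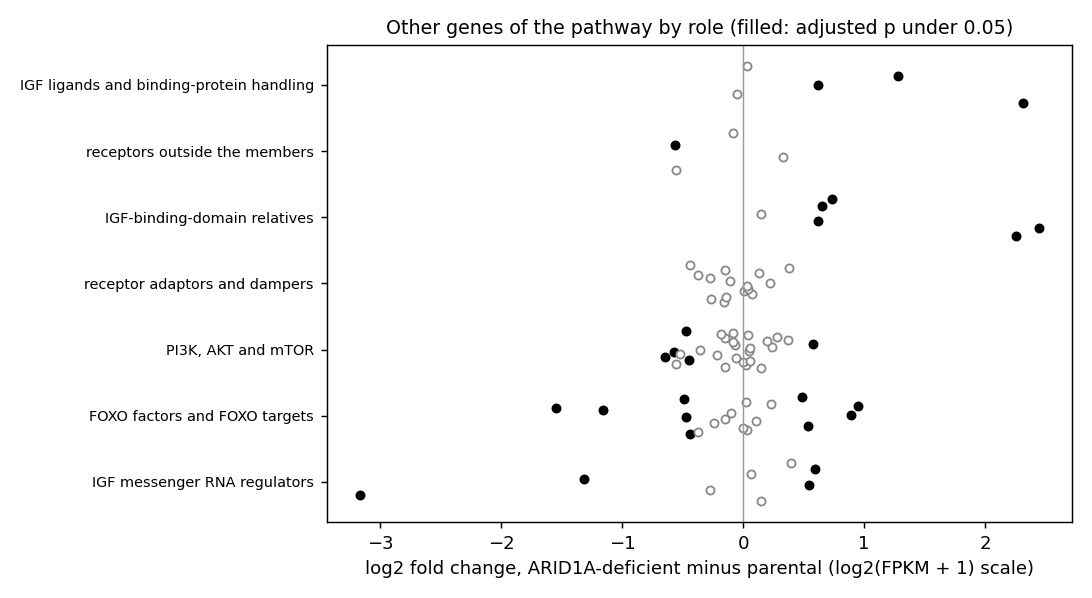
Log2 fold change, ARID1A-deficient minus parental, on the log2(FPKM + 1) scale for each tested gene of the 7 pathway lists, with genes past limma's adjusted p of 0.05 filled. The filled points of the ligand-handling and IGF-binding-domain lists all lie above 0, the adaptor list has no filled point, and the FOXO list has filled points on both sides.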

How the data were processed

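The authors deposited 1 table per library, giving FPKM by gene symbol. Build GRCh37 (hg19) and the tools Cuffdiff 2.2.1.5, TopHat2 2.1.1 and Cuffnorm 2.2.1.2 are listed per the submitters' processing notes. Annotation and scaling option: not given in the sources used here. Scaling to each library hides any shift in total RNA per cell.

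Of 23273 rows, 28 with date-like symbols were left out. Of the rest, 12826 had a mean of 0.5 FPKM or more and were tested with limma 3.58.1 (R 4.3.3) on log2(FPKM + 1), with a mean-variance trend, robust moderation and group as the only term. Two-sided p-values were adjusted over all tested genes (Benjamini-Hochberg, threshold 0.05). Log2 fold changes are ARID1A-deficient minus parental and understate the change of low genes, while a fold is the ratio of mean FPKM. The fit was tested on simulated data with noise drawn separately for each gene and library. That simulation held no trend shared by the genes of a library, so it does not cover such trends. Libraries correlated at r = 0.919 to 0.943 between groups and 0.941 to 0.965 within a group over genes, which are not independent.

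The members and lists were chosen with earlier results of these data known, and some list genes, such as CYR61, CTGF and H19, were known to move. Named were ARID1A, the members, the ligands, up to 3 called genes with the smallest adjusted p per list, and IRS2, IGF2R, H19, CYR61 and CTGF. DDR1, PAPPA, POLR2B, STC2, IGF2BP2, IGF2BP3 and markers are given beside results. Transcript lengths came from GENCODE 29 (96.3% of tested genes), promoters and gene order from RefSeq. Total fragments are unknown, so no counting intervals are given.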

Additional observations from a re-analysis of the deposited data

How the results depend on the processing

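The calls of IGFBP3, IGFBP7 and ARID1A held under all 15 alternatives tried, and that of INSR under 12 of 14, with a mean under the minimum of 3 FPKM in the other setting. Leaving out single libraries gave log2 fold changes of -0.64 to -0.53 for INSR, -0.49 to -0.19 for IRS1, -0.31 to 0.0412 for IGFBP2, -0.35 to 0.0832 for IGFBP6, -0.24 to 0.0531 for IGF1R and -0.13 to 0.21 for IRS2. It gave 1 to 3 members lower, 7 to 16 pathway genes higher and 4 to 19 lower, and 522 to 2009 of all tested genes higher and 438 to 2104 lower. With the length covariate IGF1R was at 0.00772 and IGFBP2 passed at -0.29, 22 pathway genes were higher and 22 lower, and 2033 of all tested genes were higher and 2511 lower. With a minimum mean of 3 FPKM there were 1 member lower, 7 pathway genes lower and 667 of all tested genes higher. Libraries with the same number were not treated as pairs, since the labels do not state a pairing. Their deviations from the group means correlated at 0.219, 0.217 and -0.0131, against -0.267 to 0.0825 for libraries with different numbers. These values do not settle whether the libraries pair. With a replicate block IRS1 passed at -0.32, POLR2B at -0.38 (adjusted p = 0.00461) and IGF2R at 0.33 (adjusted p = 0.0263), 19 pathway genes were lower, and 1861 of all tested genes were higher and 2188 lower. Pseudocounts of 0.1 and 0.5, no filter, quantile normalization, median centring and plain moderation changed no call of a member. Total fragments are unknown, so counting error is not separable from other spread.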
